A study of Mus musculus with 106 samples.

Results

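Huntington's disease is caused by an expanded CAG repeat in the gene of huntingtin, *Htt*, which every neuron expresses, although the projection neurons of the striatum are lost first. The vesicular glutamate transporter vGluT2, encoded by *Slc17a6*, loads glutamate into synaptic vesicles in neurons of the thalamus, hypothalamus and midbrain, whereas most pyramidal neurons of the cortex rely on vGluT1, encoded by *Slc17a7*. Thalamic vGluT2+ neurons send excitatory input to the cortex and to the striatum, and *Tcf7l2* encodes a transcription factor of the Wnt pathway that marks them.

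The libraries described here are the RiboTag IPs of the cerebrum from the vGluT2 line, 12 of the 106 libraries of the series, selected by their labels for cell type, tissue and preparation. In RiboTag mice, Cre recombinase switches the ribosomal protein Rpl22 to a form with an HA tag, so that an antibody pulls down ribosomes of the targeted cells together with their mRNA. The series compares such IPs, and total RNA of the same homogenates, between HD and Control mice in several neuron types of the cerebrum and cerebellum. The question addressed here is which mRNAs differ between genotypes on the ribosomes of cerebral vGluT2+ neurons.

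HD mice were Hdh Q7/Q200, with a long CAG repeat knocked into 1 allele of the mouse gene, and Control mice were Hdh Q7/Q7. All were 9 months old, on the same inbred background, and carried 1 vGluT2-IRES-Cre allele and 1 floxed Rpl22-HA (RiboTag) allele, which the Control mice thus share. The Cre allele sits in *Slc17a6*, and its recombination is permanent, so that cells which used this gene only earlier in life are tagged as well. The cerebrum was a hemisphere without cerebellum and olfactory bulb, and many regions are therefore pooled in each library. The 6 Control libraries (replicates 1 to 6) held 29903359 to 68022491 counts on mouse genes (median 36255018), and the 6 HD libraries (replicates 1 to 5 and re1, the re-sequenced library) 33195164 to 60611444 (median 40790140.5). Each library came from a separate mouse. For reference, 3 Control and 3 HD total RNA libraries of the same line and region were used, which held mRNA of all cells, together with 5 Control and 6 HD cerebellar IPs of the vGluT2 line and 6 Control and 6 HD cerebral IPs of the Gad2 line, which targets GABAergic neurons with a Cre allele in *Gad2*. These mice had the same age, genotypes and RiboTag allele.

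The label of the cells was checked against markers in the IPs and in total RNA. *Slc17a6* stood at 39.2 to 146 CPM in the 6 Control IPs (median 115) and 72.1 to 149 CPM in the 6 HD IPs (median 84.0). In total RNA it stood at 20.3, 28.3 and 49.9 CPM in the 3 Control total RNA libraries and 31.4, 44.3 and 66.2 CPM in the 3 HD ones. Levels are CPM, counts over the TMM-scaled size of the library. The lowest Control IP falls among the total RNA values, whereas all HD IPs lie above them. The log2 ratio of IP to total RNA, with genotype as a covariate, was 1.37 ± 0.275, where ± stands here and below for the standard error. Its adjusted p was 0.000350 by the quasi-likelihood F test of edgeR and the method of Benjamini and Hochberg, called edgeR below. For *Tcf7l2* this ratio was 0.85 ± 0.1997, with 30.9 to 84.4 CPM in the 6 Control IPs (median 62.0) and 36.1 to 85.5 CPM in the 6 HD IPs (median 54.9). Its total RNA values were 23.5, 32.7 and 37.7 CPM in the 3 Control total RNA libraries and 29.9, 36.6 and 41.6 CPM in the 3 HD ones, so that the IPs of both genotypes overlap total RNA. Of 14729 protein-coding genes tested in this comparison, 7797 (52.9%) passed, 3638 of them higher in the IPs. A marker that passes as higher is therefore 1 of these 3638 genes.

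Over the 12 markers of thalamic glutamatergic neurons the median log2 ratio of IP to total RNA was 0.63, over the 12 of cortical and hippocampal glutamatergic neurons 0.78, and over the 10 of hypothalamic and midbrain glutamatergic neurons 0.27. Per kilobase of exons, the median level of *Slc17a7* in the Control IPs was 362 CPM and that of *Slc17a6* 21.4 CPM, with 339 and 15.6 CPM in the HD IPs. By these markers the IPs hold mRNA of cortical as well as thalamic glutamatergic neurons, and the name vGluT2 IP used below refers to the Cre line. The next 4 genes, markers of other cells, were depleted. For *Slc32a1*, the vesicular GABA transporter, the log2 ratio was -4.13 ± 0.255, for *Gad1*, which makes GABA, -3.00 ± 0.187, for the microglial receptor *Cx3cr1* -3.66 ± 0.213, and for the astrocyte water channel *Aqp4* -3.18 ± 0.303.

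Several libraries stood apart before genotype was considered. In HD replicate re1, the re-sequenced library, 12642 protein-coding genes were detected, against 14871 to 16702 in the other 11, and 1802 of the 14354 tested genes had no count, against 29 to 261. CT010467.1, a ribosomal RNA gene, held 17.2% of its counts, against 5.55% in Control replicate 6 and 1.45% to 3.07% elsewhere. Its median Pearson correlation with the other HD libraries, across genes on log2 CPM, was 0.944, the lowest of the 12, followed by 0.968 for Control replicate 1 within its group. Control replicate 6 came next to re1 in genes without a count (261) and in genes detected (14871). Only 1 of the 12 libraries is a re-sequenced one, and it is HD, so that re-sequencing and genotype cannot be told apart in it. Calls, and medians of gene lists, that leaving it out changed are given with and without it.

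Libraries also differed in the balance between long and short genes. The length shift is the median log2 level of the 2095 genes with the longest exons minus that of the 2095 with the shortest, relative to the mean of the 12 libraries. It was -0.46 in Control replicate 1 and 0.09, 0.20, 0.22, 0.25 and 0.44 in the other Control libraries. In the HD libraries it was -0.39 (replicate 4), -0.31 (replicate 1), -0.21 (re1), 0.03, 0.04 and 0.14. The groups overlap, with medians of 0.21 and -0.09. The log2 fold change of HD over Control accordingly had a median of 0.12 over the shortest genes, 1599 of 2095 of them higher in HD, and of -0.13 over the longest, 1589 of 2095 lower. With the length shift as a covariate these medians were 0.01 and 0.02. The covariate was computed from these same genes, so that the small difference left between them is no test. In cerebral total RNA the order was the opposite, with medians of -0.20 over the shortest and 0.40 over the longest genes. For gene lists the value with this covariate, chosen after the data had been seen, is given beside the other.

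**Figure D1:**
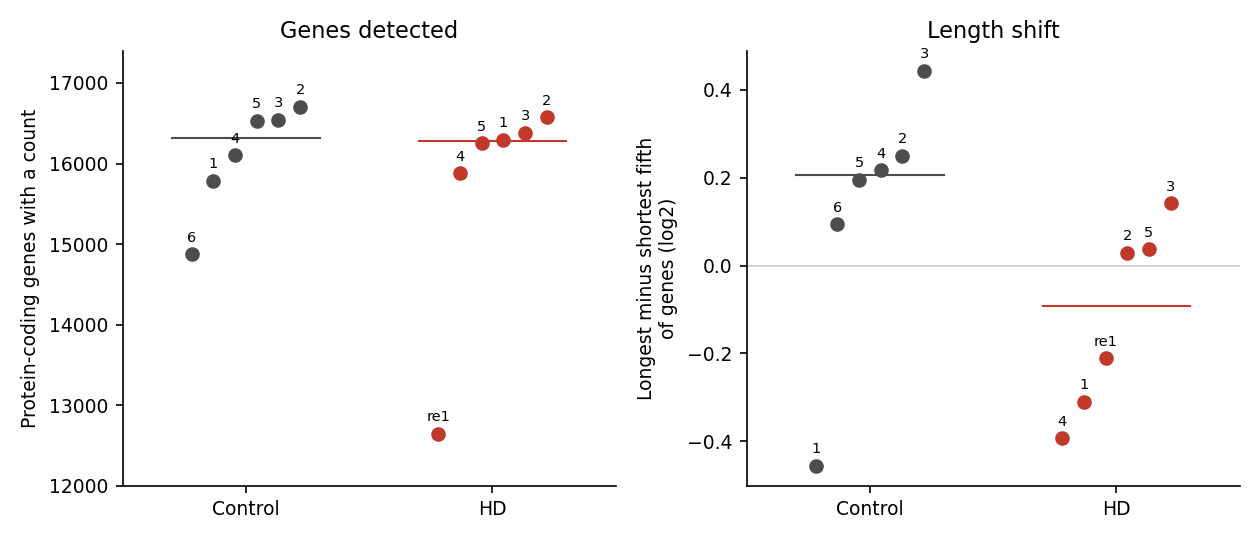
Protein-coding genes with a count (left) and the length shift in log2 units (right) in each cerebral vGluT2 IP, with replicate names beside the points and group medians as lines. HD replicate re1 has 12642 genes and lies below the other 11 libraries, and Control replicate 1 has the lowest length shift, -0.46.

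*Htt* itself was lower in HD, and it was the only gene that edgeR called among 14354 protein-coding genes. *Htt* stood at 61.2 to 81.5 CPM in the Control libraries (median 72.7) and 44.0 to 51.2 CPM in the HD libraries (median 46.1). The groups do not overlap, since the highest HD library lies below the lowest Control library. The log2 fold change was -0.63 ± 0.0849, with an adjusted p of 0.0444 by edgeR and 9.02e-09 by DESeq2, and all 6 HD libraries were below all 6 Control libraries. The counts do not separate the alleles. Without re1 the log2 fold change was -0.61, and the adjusted p by edgeR was 0.0892. With any 1 library left out, the log2 fold change stayed between -0.66 and -0.58. The adjusted p by edgeR was 0.0333 without Control replicate 5 and 0.0758 to 0.396 without each other library, so that leaving out any of those 11 ended the call. With the length shift as a covariate the log2 fold change was -0.61, and the adjusted p by edgeR 0.0295. Relative to total RNA, *Htt* was depleted in the IPs, with a log2 ratio of -0.80 ± 0.0826.

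*Htt* lies on chromosome 5 at chr5:34761740-34912534 in GRCm38. The start of its coding sequence in exon 1 is shown because it holds the CAG repeat that the HD allele carries in expanded form, here as the reference genome has it, from GENCODE M21 transcripts. The 90 bases at chr5:34761907-34761996 on the plus strand encode the N-terminus of the protein. Capitals mark the run of 7 glutamine codons that begins at codon 18, 6 of them CAG and 1 CAA, at chr5:34761958-34761978.
*Htt* exon 1, reference allele: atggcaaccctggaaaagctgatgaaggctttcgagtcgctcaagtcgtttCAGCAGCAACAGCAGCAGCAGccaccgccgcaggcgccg

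Across all genes few differences passed. By edgeR 1 of 14354 genes passed (0.00697%), 1045 had an unadjusted p under 0.05 (564 higher and 481 lower in HD), and DESeq2 called 25 (0.174%), 7 higher and 18 lower. The 1045 became 562 to 2941 with 1 library left out, the most without Control replicate 1. They became 611 with *Xist* in the fit, in place of the sex that the labels do not give, 299 higher and 312 lower. With the length shift as a covariate they became 732, 319 higher and 413 lower. The genotypes did not overlap for 99 genes (0.69%), 29 with HD above and 70 with Control above, where a random split of 12 libraries into 6 and 6 gives 0.216%. The median log2 fold change over all tested genes was -0.02, with 6751 genes higher and 7603 lower in HD, and 0.00 without re1. DESeq2 without re1 called 61 genes, 24 of them among the 25, the exception being *Fkbp1b* (adjusted p 0.0759 by DESeq2). With the length shift as a covariate it called 66, 18 of them among the 25. Of the rest, *Cbx8* and *Selenoo* did not pass in that fit (adjusted p 0.103 and 0.102 by DESeq2), and its filter gave no adjusted p to the others, among them *Fstl4*, *Stard8*, *Cidea* and *Tal1*. The 17 genes called by DESeq2 in all 3 of these fits were *Htt*, *Ddit4l*, *Tmem132d*, *Wipf3*, *Wfs1*, *Arpp21*, *Lamp5*, *Fbl*, *Kalrn*, *Fads2*, *Chrm3*, *Net1*, *Ggact*, *Ccn2*, *Rgs4*, *Ppp1r1b* and *Mapk4*. With this covariate edgeR called *Htt*, *Wipf3*, *Ppp1r1b* and *Nbl1*, the last of which is outside the rule for named genes and was chosen after its values were seen. The calls are described by what the genes encode, a grouping made after the calls were seen and not tested. Beside a gene's log2 fold change, the value with the covariate, the value without re1 and the range with 1 library left out are given where they moved it by over 1.5 times and by at least 0.1. A statement that a gene passed or did not pass refers to the fit of all 12 libraries without the covariate, unless another fit is named.

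*Chrm3*, *Rgs4*, *Arpp21* and *Mapk4*, which DESeq2 called as lower in HD and edgeR did not call, encode proteins of signalling. *Chrm3*, the muscarinic receptor that couples acetylcholine to calcium release, was at 69.7 to 83.8 CPM in the Control libraries (median 75.8) and 43.4 to 63.5 CPM in the HD libraries (median 53.7). The groups do not overlap, and the log2 fold change was -0.50 ± 0.106, with an adjusted p of 0.352 by edgeR and 0.00528 by DESeq2. *Rgs4*, which shortens signals of G proteins coupled to such receptors, was at 353 to 496 CPM in the Control libraries (median 471) and 293 to 371 CPM in the HD libraries (median 337). Its groups overlap, since the lowest Control library lies among the HD libraries, and the log2 fold change was -0.42 ± 0.0941 (adjusted p 0.0208 by DESeq2). *Arpp21* encodes an RNA-binding phosphoprotein controlled by cAMP, which was first described in the striatum and is also made in the cortex. It was at 488 to 581 CPM in the Control libraries (median 504) and 317 to 411 CPM in the HD libraries (median 391). No HD library reached the lowest Control library, and the log2 fold change was -0.46 ± 0.0825 (adjusted p 0.000554 by DESeq2). *Mapk4*, an atypical MAP kinase, had a smaller difference, -0.28 ± 0.0738 in log2 fold change, with groups that do not overlap. It was at 70.0 to 79.0 CPM in the Control libraries (median 71.4) and 57.6 to 64.7 CPM in the HD libraries (median 60.3). Its adjusted p was 0.0280 by DESeq2.

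*Wipf3*, *Kalrn*, *Net1* and *Stard8*, which act on the actin skeleton or on small GTPases, were likewise called as lower by DESeq2 and not by edgeR. *Wipf3*, which binds WASP proteins that start actin filaments, was at 213 to 292 CPM in the Control libraries (median 262) and 172 to 202 CPM in the HD libraries (median 181). The groups do not overlap. Its log2 fold change was -0.50 ± 0.0881, with an adjusted p of 0.147 by edgeR and 0.000293 by DESeq2, and 0.0367 by edgeR with the length shift as a covariate. *Kalrn*, an exchange factor for Rac and related GTPases that shapes dendritic spines, was at 309 to 395 CPM in the Control libraries (median 352) and 238 to 305 CPM in the HD libraries (median 254). All HD libraries were lower than all Control libraries, and the log2 fold change was -0.45 ± 0.0886 (adjusted p 0.00466 by DESeq2). *Net1*, an exchange factor for such GTPases, was at 57.4 to 74.2 CPM in the Control libraries (median 66.2) and 41.9 to 54.1 CPM in the HD libraries (median 50.5), with groups apart and a log2 fold change of -0.44 ± 0.0948 (adjusted p 0.00838 by DESeq2). *Stard8*, which switches them off, was at 15.1 to 22.7 CPM in the Control libraries (median 21.8) and 12.6 to 16.3 CPM in the HD libraries (median 13.5), with a log2 fold change of -0.57 ± 0.120 (adjusted p 0.0204 by DESeq2). Its Control replicate 6, at 15.1 CPM, falls into the HD range. *Chn1*, a GTPase-activating protein for Rac that a figure of the study shows for cerebral neurons, was not called. It was at 1503 to 1719 CPM in the Control libraries (median 1655) and 1127 to 1506 CPM in the HD libraries (median 1331), and the groups overlap. Its log2 fold change was -0.31 ± 0.0760 (adjusted p 0.0928 by DESeq2, and 0.0111 without re1, in which it passed).

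*Lamp5*, *Ccn2*, *Fstl4* and *Tmem132d*, also called as lower by DESeq2 and not by edgeR, encode membrane or secreted proteins. *Lamp5*, a membrane protein of synaptic vesicles and endosomes that marks neurons of upper cortical layers, was at 246 to 313 CPM in the Control libraries (median 291) and 167 to 232 CPM in the HD libraries (median 209). *Ccn2*, a matricellular growth factor that marks the deepest cortical layer, was at 36.1 to 42.5 CPM in the Control libraries (median 40.8) and 25.8 to 33.7 CPM in the HD libraries (median 31.1). For both genes every HD library was below every Control library. The log2 fold changes were -0.48 ± 0.0906 for *Lamp5* (adjusted p 0.000554 by DESeq2) and -0.40 ± 0.0872 for *Ccn2* (adjusted p 0.00600 by DESeq2). *Fstl4*, a secreted protein of the follistatin family, was at 14.2 to 26.5 CPM in the Control libraries (median 18.4) and 7.02 to 12.5 CPM in the HD libraries (median 11.3). The groups are apart, with a log2 fold change of -0.86 ± 0.173 (adjusted p 0.00384 by DESeq2). *Tmem132d*, which encodes a membrane protein of neurons, was at 58.3 to 70.4 CPM in the Control libraries (median 65.5) and 42.5 to 50.6 CPM in the HD libraries (median 46.5). Its groups do not overlap, and the log2 fold change was -0.49 ± 0.0800 (adjusted p 5.15e-06 by DESeq2).

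*Ddit4l*, *Wfs1* and *Fads2* were called as lower by DESeq2, and edgeR did not call them. *Ddit4l* (REDD2), an inhibitor of the growth kinase mTORC1, had the most negative log2 fold change among the genes that DESeq2 called. It was at 22.5 to 29.6 CPM in the Control libraries (median 26.0) and 9.01 to 18.2 CPM in the HD libraries (median 12.6). The groups do not overlap, and the log2 fold change was -0.98 ± 0.1502, with an adjusted p of 0.0829 by edgeR and 1.29e-05 by DESeq2. Without re1 its adjusted p by edgeR was 0.0138, and it was then the only gene that edgeR called. *Wfs1*, wolframin, a membrane protein of the endoplasmic reticulum that marks pyramidal neurons of hippocampal area CA1 and upper cortex, was at 162 to 238 CPM in the Control libraries (median 189.8) and 99.9 to 154 CPM in the HD libraries (median 116). No HD library reached the lowest Control library. Its log2 fold change was -0.67 ± 0.120 (adjusted p 0.147 by edgeR and 0.000293 by DESeq2). *Fads2*, a desaturase of polyunsaturated fatty acids, was at 64.5 to 67.8 CPM in the Control libraries (median 65.6) and 44.6 to 56.3 CPM in the HD libraries (median 50.9). The Control libraries lie close together, above all HD libraries, and the log2 fold change was -0.37 ± 0.0788 (adjusted p 0.00126 by DESeq2). *Fads2* was depleted in the IPs, with a log2 ratio to total RNA of -2.25.

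The 7 genes that DESeq2 called as higher in HD had groups that do not overlap. *Fbl*, fibrillarin, which methylates ribosomal RNA in the nucleolus, was at 36.0 to 58.3 CPM in the Control libraries (median 50.04) and 62.2 to 81.5 CPM in the HD libraries (median 76.1). Its log2 fold change was 0.62 ± 0.118 (adjusted p 0.195 by edgeR and 0.000554 by DESeq2), and 0.50 with the length shift as a covariate. *Ggact*, an enzyme that breaks down cross-linked glutamyl amines, was at 16.8 to 20.6 CPM in the Control libraries (median 17.6) and 21.8 to 26.2 CPM in the HD libraries (median 24.2), with a log2 fold change of 0.42 ± 0.0913 (adjusted p 0.00215 by DESeq2). *Cbx8*, a chromobox subunit of polycomb repressive complex PRC1, was at 13.9 to 17.1 CPM in the Control libraries (median 14.7) and 17.8 to 27.5 CPM in the HD libraries (median 20.7), with 0.56 ± 0.128 (adjusted p 0.0451 by DESeq2). All 6 HD libraries exceeded the Control libraries for these genes. *Fkbp1b*, which stabilises the ryanodine receptor, was at 37.0 to 40.9 CPM in the Control libraries (median 39.7) and 44.0 to 58.4 CPM in the HD libraries (median 51.9), with a log2 fold change of 0.39 ± 0.0934. *Selenoo*, a mitochondrial selenoprotein, was at 12.8 to 17.4 CPM in the Control libraries (median 15.3) and 18.9 to 25.2 CPM in the HD libraries (median 20.5), with 0.46 ± 0.113, a difference that again leaves the groups apart. *Cidea*, a lipid droplet protein, and *Tal1*, a transcription factor of midbrain and hindbrain interneurons, were at low levels. *Tal1* was at 1.04 to 3.06 CPM in the Control libraries (median 2.07) and 3.24 to 6.13 CPM in the HD libraries (median 4.56), with a log2 fold change of 1.12 ± 0.273, and *Cidea* at 4.82 to 7.31 CPM in the Control libraries (median 5.27) and 7.58 to 9.35 CPM in the HD libraries (median 8.88), with 0.63 ± 0.143. The adjusted p by DESeq2 was 0.0491 for *Fkbp1b*, 0.0491 for *Selenoo*, 0.0113 for *Cidea* and 0.0427 for *Tal1*.

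**Figure D2:**
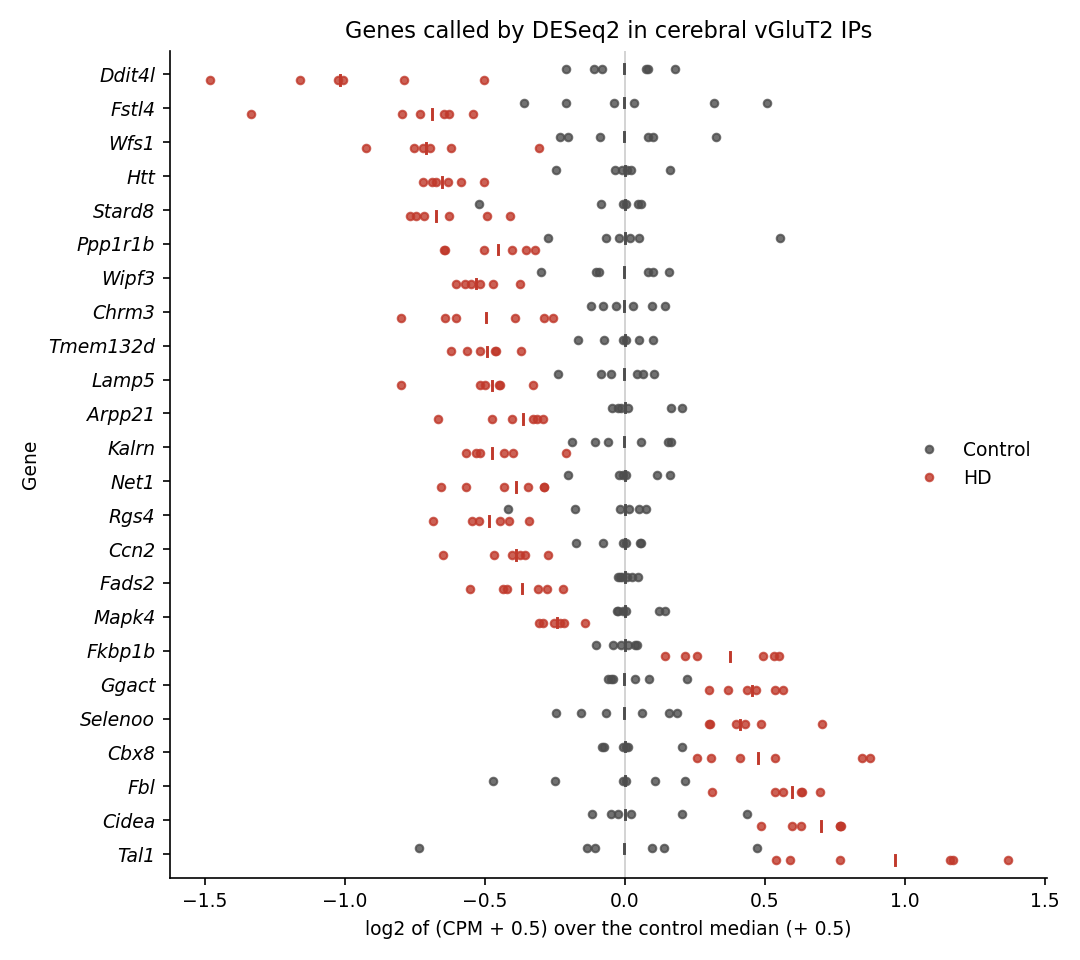
Level of 24 genes called by DESeq2 in every cerebral vGluT2 IP, as log2 of (CPM + 0.5) over the Control median (+ 0.5), with 1 point per library and vertical marks at the group medians. The groups do not overlap for 22 of these genes, *Stard8* and *Rgs4* being the other 2.

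Markers of striatal projection neurons, which are GABAergic and outside the targeted class, were lower in HD in these IPs. Of the 16 markers 13 were lower and 3 higher, at a median log2 fold change of -0.19 (-0.27 to -0.11 with 1 library left out) beside -0.02 over all genes, and -0.16 with the length shift as a covariate. None passed edgeR, 5 of the 16 had an unadjusted p under 0.05, all lower in HD, beside 1045 of all 14354 genes, and DESeq2 called 2, *Arpp21* and *Ppp1r1b*, beside 0.174% of all genes. Their summed level was 1416 to 1533 CPM in the Control libraries (median 1489) and 1152 to 1267 CPM in the HD libraries (median 1202). The sums do not overlap, and *Arpp21* is the most abundant of the list. The groups were apart for 3 of the 16 genes, against 0.69% of all genes. Relative to total RNA the list had a median log2 ratio of -1.35, and 4 of the 16 were depleted at least 4-fold, so that most of these mRNAs are detected in the IPs below their level in the tissue, whereas *Arpp21* had a log2 ratio of 0.53. How much of the difference in the IPs comes from mRNA of striatal neurons was not tested. In bulk samples such as these, fewer cells of a type and less RNA per cell cannot be told apart.

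*Ppp1r1b*, DARPP-32, the phosphatase inhibitor through which dopamine acts in striatal neurons, was at 127 to 225 CPM in the Control libraries (median 153) and 97.5 to 122 CPM in the HD libraries (median 112). The groups do not overlap, and Control replicate 1, at 225 CPM, lies far above the other Control libraries. The log2 fold change was -0.54 ± 0.125 (adjusted p 0.468 by edgeR and 0.0319 by DESeq2). With the length shift as a covariate it was -0.69, with an adjusted p of 0.0295 by edgeR. In total RNA the gene was at 475, 539 and 605 CPM in the 3 Control total RNA libraries and 236, 281 and 313 CPM in the 3 HD ones, again without overlap, and its log2 ratio of IP to total RNA was -1.54 ± 0.111. *Penk*, the precursor of enkephalin, which is made by striatal neurons of the indirect pathway, was at 96.4 to 156 CPM in the Control libraries (median 110.3) and 59.3 to 93.3 CPM in the HD libraries (median 82.8). All HD libraries were lower than all Control libraries, with a log2 fold change of -0.52 ± 0.133 (adjusted p 0.567 by edgeR and 0.0501 by DESeq2). With the covariate *Penk* had -0.64 and passed DESeq2 (adjusted p 4.29e-05), whereas without re1 its adjusted p by DESeq2 was 0.0848. *Adora2a*, the adenosine receptor of the same neurons, was at 3.61 to 8.49 CPM in the Control libraries (median 4.96) and 2.01 to 3.97 CPM in the HD libraries (median 2.18). Its groups overlap at HD replicate 2, and the log2 fold change was -1.10 ± 0.276 (adjusted p 0.0646 by DESeq2, and 0.0368 without re1, in which it passed).

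For the other genes that the study names for cerebral neurons, no change passed either tool. The study reports *Drd1*, *Drd2*, *Pde10a* and *Pcp4* as lower in cerebral neurons of HD mice. It describes the set to which they belong as lower also in cerebral vGluT2+ or parvalbumin neurons. Its text gives *Cnr1* as lower in cerebral Gad2+ neurons. The phosphodiesterase *Pde10a*, at 32.5 to 54.7 CPM in the Control libraries (median 37.9) and 25.7 to 34.0 CPM in the HD libraries (median 31.1), had a log2 fold change of -0.44 ± 0.14, and -0.26 with the length shift as a covariate. The dopamine receptors had -0.34 ± 0.178 (-0.17 with the covariate and -0.47 to -0.22 with 1 library left out) for *Drd1* and -0.03 ± 0.119 for *Drd2*. *Drd2* was at 7.80 to 11.0 CPM in the Control libraries (median 10.1) and 8.87 to 10.8 CPM in the HD libraries (median 9.41), so that the groups overlap almost entirely. The calmodulin regulator *Pcp4* had 0.00 ± 0.181 (-0.20 with the covariate and -0.09 to 0.14 with 1 library left out), the cannabinoid receptor *Cnr1* -0.30 ± 0.228 (-0.17 without re1), the auxiliary AMPA receptor protein *Gsg1l* -0.22 ± 0.101, and the phosphatase inhibitor *Arpp19* -0.54 ± 0.175, with groups that overlap in each. With the length shift as a covariate the values were 0.05 for *Cnr1* and -0.23 for *Arpp19*.

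HD mice carry the knock-in allele together with the DNA around it, so genes near *Htt* were counted apart. Within 20 Mb of *Htt*, edgeR called 1 of 210 tested genes, *Htt* itself, and 0 of the 14144 other genes. In that remainder 1024 had an unadjusted p under 0.05, or 7.24%, against 10% of those near *Htt*, and DESeq2 called 23, against 2 near *Htt*, *Htt* and *Wfs1*. *Wfs1* lies 2.20 Mb from *Htt*. The median log2 fold change was -0.01 near *Htt* and -0.02 over the rest. Among the genes with the lowest p in this window, *Fosl2*, a Fos family transcription factor at -2.63 Mb from *Htt*, had a log2 fold change of -0.39 ± 0.106. *Otof*, a calcium sensor for vesicle fusion at -4.39 Mb, had -0.50 ± 0.137. The groups overlap for both. Whether sequence linked to the knock-in differs between the genotypes was not tested.

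Markers of glia were depleted in the IPs relative to total RNA, and most of them were lower in HD. Of 10 oligodendrocyte markers, all of them depleted at least 4-fold in the IPs (median log2 ratio -3.85), 8 were lower in HD. Beside 1045 of all 14354 genes, 3 of the 10 had an unadjusted p under 0.05, all lower in HD. The median log2 fold change of these markers was -0.50 (-0.75 to -0.29 with 1 library left out), or -0.51 with the length shift as a covariate and -0.40 without re1. Their summed level was 325 to 712 CPM in the Control libraries (median 537) and 321 to 566 CPM in the HD libraries (median 389.9), and the sums overlap. The raft protein *Mal* was at 7.14 to 25.5 CPM in the Control libraries (median 13.9) and 4.06 to 16.3 CPM in the HD libraries (median 6.87). Its groups overlap, and the log2 fold change was -0.92 ± 0.358 (adjusted p 0.677 by edgeR and 0.347 by DESeq2). For *Mbp*, myelin basic protein and the most abundant of the list, it was -0.25 ± 0.191 (-0.36 to -0.10 with 1 library left out), and for the tight junction protein *Cldn11* -0.70 ± 0.276. No oligodendrocyte marker passed edgeR or DESeq2. The part of these cells in the genes lower in HD was not tested.

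Of 10 astrocyte markers, 9 of them depleted at least 4-fold, 9 were lower in HD, at a median log2 fold change of -0.37 (-0.50 to -0.22 with 1 library left out) and -0.23 with the covariate. Their sum was 620.5 to 951 CPM in the Control libraries (median 686) and 436 to 715 CPM in the HD libraries (median 509.9), with overlap. *Slc1a2*, the main glutamate transporter of astrocytes and the most abundant of the list, was at 336 to 614 CPM in the Control libraries (median 491) and 271 to 421 CPM in the HD libraries (median 352), with a log2 fold change of -0.48 ± 0.143. It was the 1 astrocyte marker not depleted 4-fold, with a log2 ratio of IP to total RNA of -1.23, and it holds most of the sum. By edgeR its adjusted p was 0.636 and by DESeq2 0.162, whereas with the covariate it had -0.24 and passed DESeq2 (adjusted p 0.0380). Another transporter, *Slc1a3*, had -0.66 ± 0.352 (-0.91 to -0.41 with 1 library left out), and the gap junction protein *Gja1* -0.56 ± 0.270 (-0.19 with the covariate and -0.71 to -0.32 with 1 library left out). The 10 microglial markers, all depleted at least 4-fold, had a median of -0.31 (-0.47 to -0.09 with 1 library left out), or -0.43 with the covariate, 7 of them lower. Their sum was 29.0 to 54.8 CPM in the Control libraries (median 45.5) and 37.2 to 51.7 CPM in the HD libraries (median 42.7). The chemokine receptor *Cx3cr1* had a log2 fold change of -0.31 ± 0.315 (-0.46 to -0.18 with 1 library left out), and *C1qb* of the complement system -0.88 ± 0.748 (-1.74 to -0.59 with 1 library left out). All of these groups overlap, and none of the markers of astrocytes or microglia passed edgeR or DESeq2. At an unadjusted p under 0.05 there were 1 and 0 of them, beside 1045 of all 14354 genes.

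Endothelial mRNA was at low levels. The 5 endothelial markers summed to 3.28 to 9.05 CPM in the Control libraries (median 5.78) and 0.329 to 9.83 CPM in the HD libraries (median 4.57). Here *Flt1*, a VEGF receptor and the most abundant of the list, had a log2 fold change of -0.55 ± 0.486 (-0.30 without re1), the surface protein *Ly6c1* -0.51 ± 0.946 (-0.22 without re1 and -1.08 to 0.33 with 1 library left out), and the transporter *Slco1a4* -0.27 ± 0.806 (-0.04 with the covariate, -0.01 without re1 and -0.89 to -0.01 with 1 library left out). The median was -0.27 (-0.77 to 0.17 with 1 library left out), or -0.04 with the covariate and -0.01 without re1. *Ly6c1* and *Slco1a4* were at 0 in re1, as were the choroid plexus folate receptor *Folr1* and the hypothalamic factor *Sim1*, whereas no marker of any list was at 0 in all 12 libraries. The 6 tested markers of choroid plexus and ependyma (*Kcnj13* did not pass the filter on counts) summed to 32.0 to 95.2 CPM in the Control libraries (median 50.9) and 32.7 to 77.5 CPM in the HD libraries (median 52.3), at a median log2 fold change of -0.26 (-0.42 to -0.01 with 1 library left out), or -0.11 with the covariate and -0.01 without re1. *Ttr*, the thyroid hormone carrier that the choroid plexus secretes, had -0.03 ± 0.365 (-0.16 with the covariate and -0.18 to 0.27 with 1 library left out) and was the most abundant. *Kl* (klotho) had -0.44 ± 0.296 (-0.20 with the covariate and -0.24 without re1), *Folr1* -0.49 ± 0.715 (-0.20 without re1 and -0.69 to -0.10 with 1 library left out), and the ciliary factor *Foxj1* 0.16 ± 0.290 (-0.06 with the covariate and 0.06 to 0.29 with 1 library left out).

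Among neurons outside the targeted class, 8 of the 12 GABAergic markers were lower in HD, at a median log2 fold change of -0.26 (-0.41 to -0.02 with 1 library left out) and -0.12 with the covariate. They summed to 146 to 209 CPM in the Control libraries (median 184) and 161 to 209 CPM in the HD libraries (median 192), and 11 of the 12 were depleted at least 4-fold. *Gad2*, which makes GABA, was at 11.8 to 29.2 CPM in the Control libraries (median 18.6) and 6.44 to 19.3 CPM in the HD libraries (median 13.6), with a log2 fold change of -0.58 ± 0.283 (-0.30 with the covariate), *Pvalb*, the calcium buffer of fast-spiking interneurons and the most abundant of the list, had 0.36 ± 0.222 (0.14 with the covariate), and the neuropeptide *Npy* -0.57 ± 0.363 (-0.87 to -0.30 with 1 library left out). Of the monoaminergic markers 5 were tested (*Slc6a4* did not pass the filter), with a median of -0.14 (-0.21 to 0.04 with 1 library left out), or -0.12 with the covariate and 0.04 without re1, and a sum of 42.0 to 60.3 CPM in the Control libraries (median 56.3) and 29.6 to 58.5 CPM in the HD libraries (median 50.2). The dopamine transporter *Slc6a3* had -0.17 ± 0.114 and was the most abundant, the vesicular monoamine transporter *Slc18a2* had -0.49 ± 0.380 (-0.12 with the covariate and -0.27 without re1), and *Th*, the rate-limiting enzyme of dopamine synthesis, -0.14 ± 0.249 (-0.28 with the covariate and 0.04 without re1). No GABAergic or monoaminergic marker passed edgeR or DESeq2, and none had an unadjusted p under 0.05.

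Of the markers of glutamatergic neurons themselves, DESeq2 called 1, *Wfs1*, beside 0.174% of all genes. *Slc17a6* was at 39.9 to 146 CPM in the Control libraries (median 114) and 72.5 to 149.8 CPM in the HD libraries (median 82.7) on the scale of the 12 IPs, and *Tcf7l2* at 31.5 to 84.8 CPM in the Control libraries (median 62.1) and 36.4 to 86.1 CPM in the HD libraries (median 54.2). The groups overlap for both, and the log2 fold changes were -0.13 ± 0.265 and -0.04 ± 0.231. Of the 12 thalamic markers 10 were lower, with a median of -0.11 (-0.27 to -0.07 with 1 library left out, -0.07 with the covariate, 7 lower and 5 higher), and their sum was 426 to 641 CPM in the Control libraries (median 589.9) and 448 to 600.5 CPM in the HD libraries (median 484). *Prkcd*, a protein kinase C of sensory relay nuclei and the most abundant of them, had a log2 fold change of -0.43 ± 0.125 (adjusted p 0.636 by edgeR and 0.154 by DESeq2). With the covariate it had -0.48 and passed DESeq2 (adjusted p 0.0465). The actin-binding *Synpo2* had -0.39 ± 0.1503 and the G protein regulator *Rgs16* -0.30 ± 0.120. Of the 12 cortical and hippocampal markers 8 were lower, with a median of -0.11 (-0.17 to -0.06 with 1 library left out, -0.08 with the covariate and -0.06 without re1). Their sum was 2662 to 3299 CPM in the Control libraries (median 2931) and 2425 to 3666 CPM in the HD libraries (median 2696), the highest being HD replicate 1. *Slc17a7*, the most abundant, had -0.02 ± 0.118 (-0.13 with the covariate and -0.14 to 0.03 with 1 library left out), and the transcription factors *Rorb* and *Neurod6* had -0.43 ± 0.168 (-0.12 with the covariate) and -0.23 ± 0.120 (-0.12 with the covariate). Of the 10 hypothalamic and midbrain markers 7 were higher, with a median of 0.11 (-0.07 to 0.36 with 1 library left out), or 0.19 with the covariate and 0.36 without re1, at a sum of 47.4 to 73.3 CPM in the Control libraries (median 56.7) and 54.2 to 77.9 CPM in the HD libraries (median 63.8). *Adcyap1* (PACAP), the most abundant, had 0.12 ± 0.109, *Lmx1b* 0.65 ± 0.407, *Barhl1* 0.52 ± 0.386 (0.31 to 0.74 with 1 library left out) and *Sim1* -1.15 ± 0.804 (-0.43 with the covariate), the last 3 being developmental transcription factors with few counts.

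Immediate early genes, which neurons transcribe within minutes of activity, were lower in 18 of 19 cases, beside 7603 of all 14354 genes. The median log2 fold change was -0.16 (-0.30 to -0.08 with 1 library left out, -0.14 with the covariate). With the covariate 16 were lower and 3 higher. Beside 1045 of all 14354 genes, an unadjusted p under 0.05 was found for 4 of these 19. Their sum was 823 to 1322 CPM in the Control libraries (median 1064) and 770 to 1108 CPM in the HD libraries (median 893), with overlap. *Egr1*, a zinc finger transcription factor and the most abundant, was at 205 to 329.8 CPM in the Control libraries (median 258) and 177 to 291 CPM in the HD libraries (median 231), with -0.15 ± 0.147. *Homer1*, a scaffold of glutamate receptors, had -0.55 ± 0.174 (-0.30 with the covariate), and the nuclear receptor *Nr4a2* -0.34 ± 0.153 (-0.15 with the covariate). No member passed edgeR or DESeq2. Of 18 genes of cAMP and calcium signalling 14 were lower, with a median of -0.20 (-0.22 to -0.11 with 1 library left out). With the covariate the median was -0.03, with 10 lower and 8 higher. DESeq2 called 1 of the 18, *Rgs4*, beside 0.174% of all genes. *Nrgn*, neurogranin, which holds calmodulin in dendrites and is the most abundant of the list, had -0.01 ± 0.130 (-0.20 with the covariate and -0.06 to 0.11 with 1 library left out). The calmodulin-dependent kinase *Camk4* was at 78.2 to 96.5 CPM in the Control libraries (median 91.1) and 50.7 to 79.2 CPM in the HD libraries (median 70.8), and its groups overlap, with -0.42 ± 0.114 (adjusted p 0.118 by DESeq2, and 0.0269 without re1, in which it passed). Adenylyl cyclase *Adcy1* had -0.29 ± 0.0991, its highest HD value, 399 CPM, being that of replicate 2.

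Receptors of glutamate and GABA had negative median log2 fold changes that came close to 0 with the length shift as a covariate. Of 22 glutamate receptor genes 19 were lower, with a median of -0.23 and -0.04 with the covariate. *Gria1*, an AMPA receptor subunit, was at 340.1 to 417 CPM in the Control libraries (median 348) and 288 to 324 CPM in the HD libraries (median 303). Its groups do not overlap, Control replicate 3 being the highest, and the log2 fold change was -0.25 ± 0.0721, and -0.21 with the covariate (adjusted p 0.636 by edgeR without it). *Gria3* had -0.60 ± 0.214, the NMDA receptor subunit *Grin2a* -0.43 ± 0.161, and *Grin1*, the obligatory subunit and the most abundant, -0.08 ± 0.108. With the covariate *Gria3* had -0.25 and *Grin2a* -0.21. All 12 GABA-A receptor subunits were lower, with a median of -0.29 and 0.02 with the covariate, under which 6 were lower and 6 higher. *Gabrb2* was at 19.1 to 112 CPM in the Control libraries (median 57.2) and 6.53 to 46.3 CPM in the HD libraries (median 36.4), and its groups overlap, with -0.97 ± 0.433 and -0.21 with the covariate. The extrasynaptic subunit *Gabrd* had -0.30 ± 0.101 (adjusted p 0.315 by DESeq2), and -0.40 with the covariate, under which it passed DESeq2 (adjusted p 0.0109).

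Subunits of ion channels were more often lower than higher in HD. All 8 sodium channel subunits were lower, with a median of -0.24 (-0.30 to -0.14 with 1 library left out), or -0.03 with the covariate and -0.14 without re1. With the covariate 5 were lower and 3 higher. Their summed levels, 1958 to 2108 CPM in the Control libraries (median 1987) and 1782 to 1889 CPM in the HD libraries (median 1828), do not overlap. The pore subunits *Scn8a*, *Scn1a* and *Scn2a*, which carry the action potential, had log2 fold changes of -0.31 ± 0.114, -0.38 ± 0.229 and -0.35 ± 0.217. With the covariate *Scn1a* had 0.06 and *Scn2a* 0.07. Of 15 calcium channel subunits 13 were lower, with a median of -0.12 (-0.18 to -0.08 with 1 library left out, -0.09 with the covariate). *Cacnb3*, the most abundant, had 0.03 ± 0.125 (-0.14 with the covariate and -0.01 to 0.15 with 1 library left out), *Cacna2d3* -0.41 ± 0.137, *Cacnb2* -0.28 ± 0.119 (-0.17 with the covariate) and *Cacnb4* -0.52 ± 0.242 (-0.11 with the covariate), all auxiliary subunits. The 25 potassium and HCN channel genes had 14 lower and 11 higher, with a median of -0.06 (-0.14 to -0.04 with 1 library left out, -0.05 with the covariate and -0.14 without re1). The axonal channel *Kcna1* had -0.78 ± 0.297 (-0.21 with the covariate), the inward rectifier *Kcnj6* -0.45 ± 0.157 and the pacemaker channel *Hcn3* 0.42 ± 0.180 (0.25 with the covariate and 0.25 without re1). None of these channel genes passed edgeR or DESeq2. An unadjusted p under 0.05 was found for 11, 2 of them higher in HD, beside 1045 of all 14354 genes.

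Of 16 genes of synaptic vesicle release 9 were lower, with a median of -0.09 (-0.11 to -0.05 with 1 library left out, -0.07 with the covariate and -0.06 without re1). With the covariate 13 were lower and 3 higher. *Snap25*, the SNARE protein of vesicle fusion and the most abundant, was at 3014 to 7343 CPM in the Control libraries (median 6613) and 3293 to 6348 CPM in the HD libraries (median 4162), with overlap and a log2 fold change of -0.40 ± 0.212, or -0.02 with the covariate. The active zone scaffold *Rims1* had -0.39 ± 0.1397 (-0.15 with the covariate), and complexin *Cplx3*, at 17.8 to 26.2 CPM in the Control libraries (median 20.8) and 12.9 to 19.4 CPM in the HD libraries (median 15.3), had -0.41 ± 0.124 (adjusted p 0.219 by DESeq2), and -0.56 with the covariate, under which it passed DESeq2 (adjusted p 0.000472). Of 19 neuropeptide precursors tested (*Agrp* did not pass the filter) 11 were lower, with a median of -0.02 (-0.14 to 0.13 with 1 library left out), or -0.03 with the covariate and 0.13 without re1. *Avp*, vasopressin, a hormone of hypothalamic neurons, was at 18.2 to 60.5 CPM in the Control libraries (median 34.8) and 0.0773 to 15.1 CPM in the HD libraries (median 8.99). The HD libraries all lie below the Control libraries, with large spread in both, and the log2 fold change was -1.98 ± 0.616 (adjusted p 0.666 by edgeR and 0.320 by DESeq2). Without re1, its lowest library at 0.0773 CPM, *Avp* had -1.70, with an adjusted p of 0.149 by edgeR and 3.45e-05 by DESeq2, and so passed DESeq2. *Crh*, the corticotropin-releasing hormone, had 0.87 ± 0.373, and *Cck*, cholecystokinin and the most abundant, 0.15 ± 0.152 (-0.05 with the covariate and 0.10 to 0.32 with 1 library left out). With *Penk*, 2 of the 19 had groups apart, against 0.69% of all genes.

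Genes whose products act on or with huntingtin, and polycomb genes, held no call by edgeR. Of 15 huntingtin partners 9 were lower, with a median of -0.03 (-0.06 to 0.05 with 1 library left out), or 0.02 with the covariate and -0.01 without re1. With the covariate 6 were lower and 9 higher. The vesicle adaptor *Hap1* had 0.23 ± 0.0910 (0.13 with the covariate), the dynactin subunit *Dctn1* 0.24 ± 0.104 (0.12 with the covariate), the histone methyltransferase *Setd2* -0.38 ± 0.211 (-0.47 to -0.23 with 1 library left out), and *Pacsin1*, an endocytic protein and the most abundant, -0.02 ± 0.107. Of 12 modifiers of repeat instability 7 were lower, with a median of -0.11 (-0.14 to -0.03 with 1 library left out, 0.04 with the covariate). With the covariate 4 were lower and 8 higher. The DNA ligase *Lig1* had 0.39 ± 0.172 (0.24 with the covariate and 0.23 without re1), the mismatch repair protein *Pms1* -0.65 ± 0.405, and the nuclease *Fan1*, at 3.78 to 7.08 CPM in the Control libraries (median 5.25) and 1.02 to 6.11 CPM in the HD libraries (median 4.59), -0.36 ± 0.329 (-0.10 with the covariate and -0.50 to -0.16 with 1 library left out). Of 17 polycomb genes 8 were higher, with a median of -0.03 (-0.08 to 0.02 with 1 library left out, 0.11 with the covariate and 0.02 without re1). With the covariate 12 were higher and 5 lower. DESeq2 called 1 polycomb gene, *Cbx8*, beside 0.174% of all genes. An unadjusted p under 0.05 was found for 4 of the 17, all higher in HD, beside 1045 of all 14354 genes. The ubiquitin ligase subunit *Ring1* had 0.32 ± 0.127, and *Cbx6*, the most abundant, 0.08 ± 0.101 (-0.04 with the covariate). None of the partners or modifiers passed edgeR or DESeq2. An unadjusted p under 0.05 was found for 3, all higher in HD, beside 1045 of all 14354 genes.

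Cell cycle regulators were lower for 7 of 11, with a median of -0.18 (-0.29 to -0.01 with 1 library left out), or 0.00 with the covariate and -0.01 without re1. With the covariate 5 were lower and 6 higher. The polo-like kinase *Plk5*, which in neurons acts outside division, had -0.44 ± 0.151 (adjusted p 0.329 by DESeq2), and -0.62 with the covariate, under which it passed DESeq2 (adjusted p 0.00129). The CDK inhibitors *Cdkn1a* and *Cdkn1b* had -0.38 ± 0.134 and -0.08 ± 0.229 (0.24 with the covariate and -0.21 to 0.05 with 1 library left out), the latter being the most abundant, and the cyclin *Ccnd2* 0.18 ± 0.103. Among 9 genes of the integrated stress response and of mTOR restraint (*Trib3* did not pass the filter) DESeq2 called 1, *Ddit4l*, beside 0.174% of all genes. The list had a median of 0.00 (-0.02 to 0.05 with 1 library left out), or -0.04 with the covariate and 0.02 without re1. *Atf4*, the transcription factor of this response and the most abundant, had 0.13 ± 0.128 (-0.05 with the covariate and 0.09 to 0.26 with 1 library left out), its relative *Atf5* 0.31 ± 0.163 (0.14 with the covariate) and the glutathione-degrading *Chac1* 0.39 ± 0.1698 (0.24 without re1). Of 15 heat shock genes 9 were higher, with a median of 0.03 (0.02 to 0.09 with 1 library left out), or 0.02 with the covariate and 0.06 without re1. The constitutive chaperone *Hspa8*, the most abundant, had 0.14 ± 0.142, mitochondrial *Hspe1* 0.23 ± 0.138 (0.13 with the covariate), and the cochaperones *Bag3* and *Dnajb1* 0.33 ± 0.206 and 0.14 ± 0.0948. Clock genes split evenly, with 8 lower and 7 higher and a median of -0.03 (-0.07 to 0.05 with 1 library left out), or -0.01 with the covariate and -0.06 without re1. The PAR bZIP factors *Hlf* and *Tef*, of which *Tef* was the most abundant of the list, had -0.37 ± 0.118 (-0.21 with the covariate) and -0.13 ± 0.0938, *Per3* -0.43 ± 0.1495 and *Clock* -0.39 ± 0.218 (-0.09 with the covariate).

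Genes of oxidative phosphorylation and of the proteasome, with median exon lengths of 2239 and 2714 bases against 4489.5 over all genes, were mostly higher in HD. All 21 nuclear genes of oxidative phosphorylation were higher in HD, at a median log2 fold change of 0.24 and 0.09 with the covariate, under which 20 of 21 were higher. Their sum was 5878 to 8737 CPM in the Control libraries (median 7753) and 7888 to 9421 CPM in the HD libraries (median 8541), with overlap. *Atp5b*, the catalytic subunit of ATP synthase and the most abundant, was at 1166 to 1655 CPM in the Control libraries (median 1509) and 1501 to 1926 CPM in the HD libraries (median 1679.6), with 0.24 ± 0.0961, and 0.11 with the covariate. *Cyc1* of complex III had 0.31 ± 0.127 (0.13 with the covariate) and *Ndufa9* of complex I 0.27 ± 0.113 (0.15 with the covariate). Of 24 proteasome subunits 22 were higher, with a median of 0.20 and 0.11 with the covariate. *Psmc3*, the most abundant, had 0.17 ± 0.119 (0.02 with the covariate and 0.14 to 0.29 with 1 library left out), *Psmb6* 0.35 ± 0.144 (0.15 with the covariate), *Psma7* 0.30 ± 0.120 (0.15 with the covariate) and *Psmd2* 0.24 ± 0.0937. Autophagy genes had a median of 0.12 (0.01 with the covariate), with 0.12 ± 0.0730 for the most abundant, the ATG8 relative *Gabarapl1*, 0.19 ± 0.105 for the initiating kinase *Ulk1* and -0.18 ± 0.0950 (-0.06 with the covariate) for the conjugate *Atg12*. Genes of cholesterol synthesis had a median of -0.07 (-0.11 to -0.01 with 1 library left out, -0.05 with the covariate), 13 of 18 being lower, with -0.22 ± 0.174 (0.04 with the covariate and -0.34 to -0.13 with 1 library left out) for *Hmgcs1*, the most abundant, -0.38 ± 0.222 (-0.11 with the covariate and -0.24 without re1) for *Idi1*, 0.26 ± 0.162 (0.11 without re1) for *Lss* and 0.30 ± 0.128 (0.16 with the covariate) for *Mvk*. No gene of these lists passed edgeR or DESeq2. At an unadjusted p under 0.05 there were 5 proteasome, 4 oxidative phosphorylation, 1 cholesterol synthesis and 0 autophagy genes, all higher in HD. Over all 14354 genes there were 1045, in either direction.

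**Figure D3:**
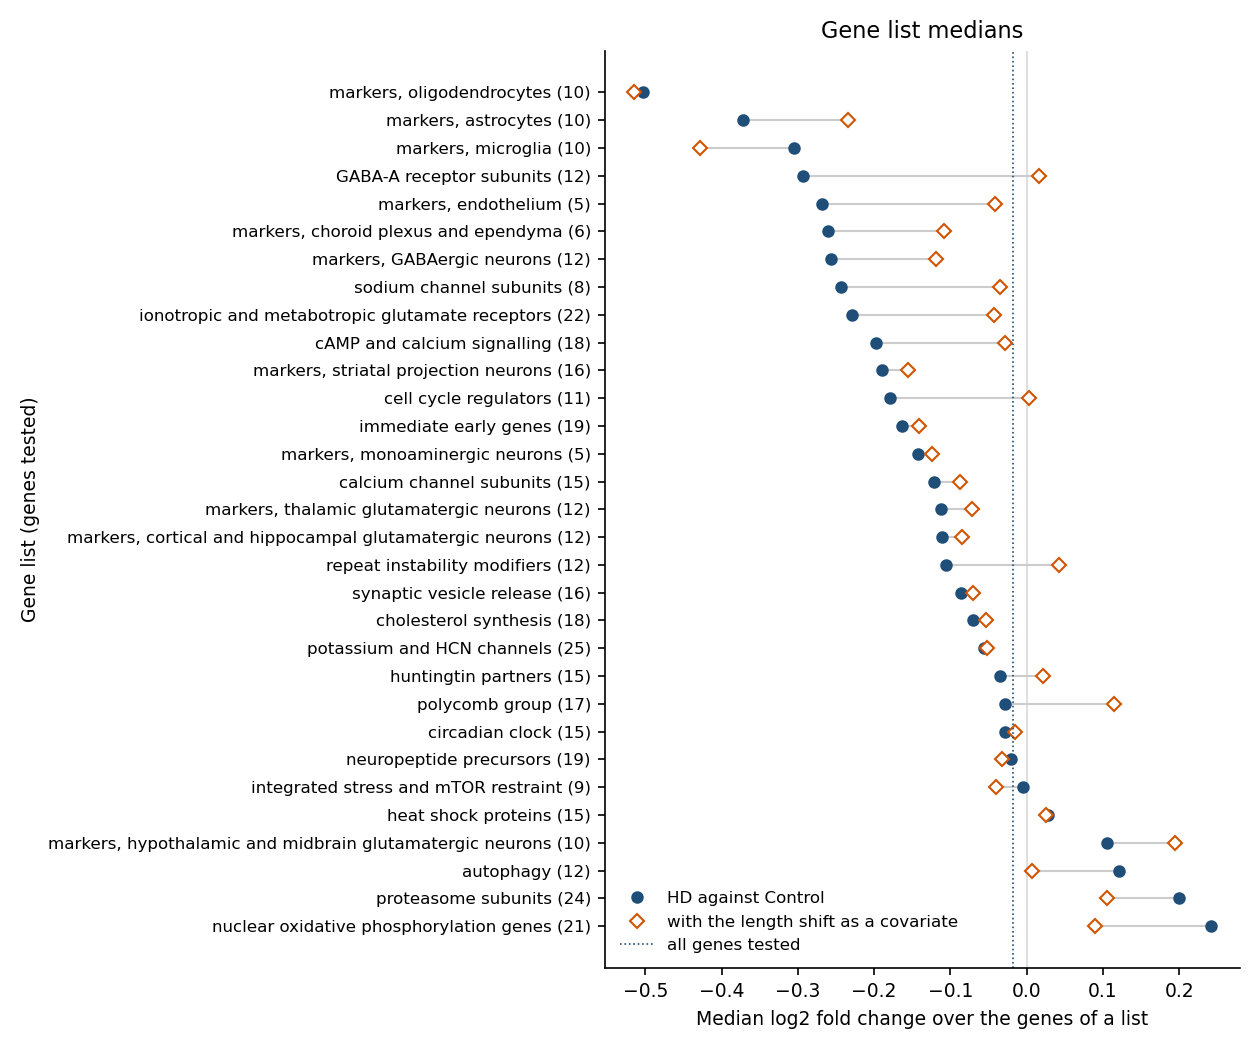
Median log2 fold change of HD over Control for each gene list (filled circles), with the number of tested genes in brackets, and the same with the length shift as a covariate (open diamonds). The dotted line marks the median over all tested genes, -0.02, and oligodendrocyte markers have the lowest median, -0.50, and nuclear oxidative phosphorylation genes the highest, 0.24.

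Genes were also grouped by their enrichment in the IPs. No value with the length shift as a covariate is given for these classes. Of 909 genes with a log2 ratio of IP to total RNA over 1, 681 were lower in HD, at a median log2 fold change of -0.18, and at an unadjusted p under 0.05 there were 62 lower and 19 higher. Over the 11466 genes between -1 and 1 the median was 0.00, and over the 1929 genes under -1 it was -0.08, or 0.00 without re1. The enriched class held 2 of the 25 DESeq2 calls, *Net1* among them, and the depleted class 2, *Fads2* and *Ppp1r1b*, beside 0.174% of all genes called. The share at an unadjusted p under 0.05 was 8.91% in the enriched class, 7.44% between and 5.34% in the depleted class.

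Whether the HD effect in the IPs differs from that in whole tissue was tested as an interaction with total RNA. No gene of 14729 passed by edgeR (0%) or by DESeq2, and 2506 had an unadjusted p under 0.05. This number was 522 of 14787 with mouse as a block, over the 12 libraries of the 6 mice that IPs and total RNA share, 599 with total RNA of 3 lines, and 611 to 4442 with 1 library left out. Total RNA alone, with 3 mice a group, gave 0 of 14843 calls by edgeR (0%), 1055 genes at an unadjusted p under 0.05 (243 to 4135 with 1 library left out), and 19 calls by DESeq2. For *Htt* the log2 fold change was -0.63 in the IPs and -0.35 ± 0.158 in total RNA, for *Ppp1r1b* -0.54 and -0.99 ± 0.167, and for *Ddit4l* -0.98 and -1.04 ± 0.194. The striatal markers had a median of -0.19 in the IPs and -0.57 in total RNA. The HD effect ran with gene length in opposite directions in the preparations. Over the longest genes, *Htt* among them, the median was -0.13 in the IPs and 0.40 in total RNA, and over the shortest 0.12 and -0.20. These comparisons have no length covariate, and the part of gene length in them was not tested.

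Against cerebellar IPs of the same Cre line, in which granule neurons are tagged, the HD effect differed for 46 of 14253 genes by edgeR (0.323%), 23 in each direction, and for 126 by DESeq2. The cerebellar IPs alone gave 285 of 13487 calls (2.11%), and 11 mice gave IPs of both regions. With mouse as a block, over these 11 mice, 31 genes differed by edgeR, 11 with a positive and 20 with a negative difference. Of the genes named here, 5 passed the test of the difference in the fit without the block. Their results with mouse as a block are not given. *Otof* had a log2 fold change of -0.50 in the cerebrum and 0.92 in the cerebellum, a difference of -1.45 ± 0.225 (adjusted p 0.00240 by edgeR), and *Mapk4* had -0.28 and 0.39 (adjusted p 0.00957 by edgeR), so that the sign differs between the regions for both. *Ggact* had 0.42 and -0.43 (adjusted p 0.00957 by edgeR). *Cplx3* had -0.41 and -2.69, and *Rgs16* -0.30 and -1.12, both more negative in the cerebellum (adjusted p 0.00674 and 0.0486 by edgeR). For *Htt* the values were -0.63 and -0.32, and the difference, -0.33 ± 0.151, did not pass (adjusted p 0.626 by edgeR).

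Against cerebral IPs of the Gad2 line, no gene of 14477 differed in its HD effect by edgeR (0%), 209 had an unadjusted p under 0.05 (150 to 320 with 1 library left out), and DESeq2 called 1. The Gad2 IPs alone gave 4 of 14342 calls by edgeR (0.0279%). For *Htt* the log2 fold change was -0.63 in the vGluT2 IPs and -0.47 in the Gad2 IPs, for *Arpp21* -0.46 and -0.78, for *Ddit4l* -0.98 and -1.95, and for *Penk* -0.52 and -0.90. For *Ddit4l* the difference was 0.96 ± 0.232, which did not pass (adjusted p 1 by edgeR). A difference that does not pass is not shown to be absent.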

How the data were processed

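Counts per gene came from RNA-seq (stranded mRNA libraries, paired ends) of RiboTag IPs and total RNA. The values are estimated counts, which the authors made with STAR and Salmon on GRCm38.p6 and deposited per gene without scaling, with no tool versions in the labels. They were rounded, 8.57% of them not being whole. Of 55401 mouse genes, 55141 matched GENCODE M21, and 21897 were protein-coding. Neither library sizes nor tests include the 92 ERCC spike-ins. Samples were grouped by their labels, and replicates are separate mice.

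For each comparison, protein-coding genes whose mean count exceeded 10 were tested with edgeR 4.0.16 (quasi-likelihood test, TMM scaling, library sizes of all mouse genes) at a Benjamini-Hochberg adjusted p of 0.05 or less. A standard error is the absolute log2 fold change over the square root of F. DESeq2 1.42.0 and limma 3.58.1 in R 4.3.3 served as alternatives, with Python 3.11.15, numpy 2.4.6, pandas 2.3.3, scipy 1.17.1 and matplotlib 3.10.9 for tables and figures. The code was tested on simulated data. Other alternatives changed the filter, size factors, gene types, covariates, dispersions and samples, and each library was left out in turn. Interactions between preparations, regions and lines were fitted with a term for the difference of HD effects, and libraries of 1 mouse were taken as separate except in an alternative with mice as blocks. The length shift uses genes over 5 CPM.

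Genes named in the text are *Htt*, genes called by edgeR or DESeq2 (at most 30), the 20 genes with the lowest edgeR p, 11 genes the study names for cerebral neurons, and of each list the 3 members with the lowest edgeR p and the most abundant. Some of these genes are not reported here. *Slc17a6* and *Tcf7l2* are named as the markers of the cells, and others in the check of the label. Members and lists were chosen with earlier results of these data known. The cerebral vGluT2 IPs held 29903359 to 68022491 counts on mouse genes. For abundant genes the libraries spread beyond counting error, and spread between mice and between preparations cannot be told apart. Libraries of other lines and of other tissues were left out except where named. Limits: tagged cells of many regions are pooled, mRNA of other cells remains in the IPs, RNA integrity values were not available, and the labels do not give the sex of each mouse, for which *Xist* stood in an alternative. The counts do not resolve the *Htt* alleles. The re-sequenced library is HD, and the length shift differs between libraries.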

Additional observations from a re-analysis of the deposited data

Results flagged for a closer look

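In 45 of 336 groups of 6 values tested (named genes, sums of lists and measures of quality, in each genotype), Dixon's Q test at the 0.05 level set 1 library apart from the other 5 of its genotype. Chance alone gives about 1 in 20 such groups. The range of the other 5 libraries stands in brackets. Control replicate 1 accounted for 15 of the 45, more than any other library, and it also had the lowest length shift. Its high values in CPM were *Ppp1r1b* 225 (127 to 158), *Psmc3* 341 (205 to 247), *Atf4* 187 (116 to 137), *Cck* 773 (379.5 to 512), *Folr1* 1.12 (0.174 to 0.494), *Ly6c1* 2.76 (0.0348 to 0.889) and *Nrgn* 3464 (2063 to 2425). Low in the same library were *Rims1* 115 (178 to 213), *Gria3* 109 (191 to 237), *Nr4a2* 29.7 (45.1 to 50.4), *Snap25* 3014 (6110 to 7343), *Scn1a* 58 (138 to 152) and *Scn2a* 102 (215 to 283). Among sums of lists it was apart for repeat instability modifiers 204 (253 to 275) and synaptic vesicle release 13517 (16550 to 17830). The high genes include the dendritic calmodulin binder *Nrgn*, and the low ones long genes of sodium channels and AMPA receptors.

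HD replicate re1, the re-sequenced library, was apart for 8 values. In it 12642 protein-coding genes had a count, 1802 tested genes were at 0, and CT010467.1 held 17.2% of the counts. Its CPM was apart for *Lig1* 26.6 (14.5 to 16.8), *Gsg1l* 139 (105 to 108.1), *Lss* 27.8 (13.9 to 18.4) and *Kl* 1.29 (4.42 to 5.94), and its sum for monoaminergic markers 29.6 (47.8 to 58.5). Control replicate 6 was apart in the share of CT010467.1 (5.55%), in tested genes at 0 (261), and in CPM for *Stard8* 15.1 (20.6 to 22.7) and *Pms1* 4.67 (2.14 to 3.02). HD replicate 1 was apart for *Scn8a* 143 (209 to 244), *Cacnb2* 28.2 (40.2 to 46.1) and *Slc17a7* 2633 (1617 to 1929), and in sums for cortical and hippocampal markers 3666 (2425 to 2778), cAMP and calcium signalling 12006 (10250 to 10810), repeat instability modifiers 164 (231 to 268) and polycomb group 1379 (1210 to 1261). HD replicate 2 stood apart for *Adora2a* 3.97 (2.01 to 2.70), *Adcy1* 399 (273 to 296), *Mal* 16.3 (4.06 to 7.95) and *C1qb* 3.06 (0.0193 to 0.972), and in the sum of oligodendrocyte markers 566 (321 to 409).

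The remaining libraries held few such values. In Control replicate 3 they were *Cbx8* 17.1 (13.9 to 14.9) and *Gria1* 417 (340.1 to 354), in Control replicate 5 *Scn8a* 230 (259 to 276), in Control replicate 4 the sum of huntingtin partners 2071 (1699 to 1834), in HD replicate 3 *Adcyap1* 54.5 (45.1 to 48.3), and in HD replicate 4 the sum of neuropeptide precursors 1066 (809.5 to 905). The difference in HD effect between cerebral and cerebellar IPs passed edgeR's test with Benjamini-Hochberg adjustment for 5 genes named here, without mouse as a block. Its log2 values were 0.84 for *Ggact*, -0.68 for *Mapk4*, -1.45 for *Otof*, 2.27 for *Cplx3* and 0.81 for *Rgs16*. The part of single libraries in the results was measured by leaving each out in turn.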

How the results depend on the processing

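Over the alternatives, values of the named genes kept their side of the threshold in 3988 of 4118 cases, with no change of sign larger than the standard deviation between libraries. They lost a call in 18 cases, all of them *Htt*, the only named gene that edgeR called before any alternative. For the other named genes, keeping the side meant staying uncalled, so that the total is no measure of how stable the call of *Htt* was. The named genes gained a call in 111 cases and changed sign by more than that deviation in 1, and 0 called values changed sign. Medians of gene lists moved by less than the standard deviation between libraries in 875 of 899 cases and by more in 24, and moves under that bound can be large relative to the median, such as -0.29 to 0.02 for GABA-A receptor subunits with the length shift as a covariate. The count of genes called for HD against Control in the cerebral vGluT2 IPs was 1 by edgeR, 25 by DESeq2, and 1 with filterByExpr, robust dispersions or limma-voom. It was 0 with no low-count filter, with DESeq2 size factors, with all gene types and with *Xist* as a covariate, and 9 with all cerebral IPs in one fit. Alternatives chosen after seeing the data gave 1 with legacy = FALSE in edgeR, 0 with library sizes of tested genes, 0 without the 2 libraries of low diversity (HD replicate re1 and Control replicate 6), and 4 with the length shift as a covariate. By DESeq2 they gave 66 with the length shift, 67 without those 2 libraries and 61 without re1. The adjusted p of *Htt* by edgeR was 0.0747 with no low-count filter, 0.0518 with DESeq2 size factors, 0.0732 with all gene types, 0.110 with *Xist* as a covariate, 0.0587 with library sizes of tested genes and 0.174 without the 2 libraries of low diversity. Leaving out each library in turn gave 0 to 1 calls, the call being *Htt* without Control replicate 5 and *Ddit4l* without re1. The cause was not tested.

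Genes called within 20 Mb of *Htt* numbered 1 by edgeR and 2 by DESeq2. The count was 0 with no low-count filter, DESeq2 size factors, all gene types, *Xist*, library sizes of tested genes, or without the 2 libraries of low diversity. It was 2 with all cerebral IPs in one fit, 2 by DESeq2 with the length shift, 4 by DESeq2 without the 2 libraries of low diversity, 3 by DESeq2 without re1, and 0 to 1 with each library left out. The IPs against total RNA gave 7797 calls, and 7052 to 8754 with each library left out. Total RNA of the vGluT2 line gave 0 by edgeR, 19 by DESeq2, 21 with total RNA of 3 lines and 96 with that of 4 lines. The cerebellar IPs gave 285, 665 by DESeq2, and 149 to 255 with each library left out, among them 149, 173, 169 and 188 without Control replicates 1 to 4, 152 without HD replicate 1 and 173 without HD replicate 5. The Gad2 IPs gave 4, 75 by DESeq2, and 3 to 12 with each library left out, the 12 being without HD replicate 4. The difference between cerebral and cerebellar IPs gave 46, 126 by DESeq2, and 32 to 67 with each library left out. The difference between vGluT2 and Gad2 IPs gave 0 by edgeR and 1 by DESeq2, and the difference between IPs and total RNA 0 by both, with 0 in each case when a library was left out. The cause was not tested.

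Replicate numbers were not taken as pairs, since no label gives them a shared litter, batch or day and not every pair of libraries deviated together. Across genes, the deviations of HD and Control libraries of the same number from their group means had correlations of 0.154, 0.353, 0.326, -0.0308 and 0.303, and 1 of 5 libraries matched its own number best. With a replicate block, which keeps 10 libraries and so drops Control replicate 6 and re1, the cerebral vGluT2 IPs gave 0 calls (adjusted p of *Htt* 0.2197 by edgeR) and 0 within 20 Mb of *Htt*. The same 10 libraries without the block also gave 0 (adjusted p 0.174 by edgeR). Genes at an unadjusted p under 0.05 numbered 1990 with the block and 996 without it. The cerebellar IPs gave 109 with the block, over 10 of their 11 libraries, and the Gad2 IPs 9. With mouse as a block the IPs against total RNA gave 6134, their difference in HD effect 0, and the difference between cerebral and cerebellar IPs 31. Depth limits genes with few counts, and 1802 tested genes without a count in re1 carry no level there.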
